A study of Codonopsis pilosula with 12 samples.

Results

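The drought response that cultivars W1 and G1 of Codonopsis pilosula had in common is described here gene by gene. C. pilosula is a climbing herb of the bellflower family whose dried root is used in Chinese medicine, and the leaves of its seedlings were sequenced. The 6 drought libraries were compared with the 6 watered libraries, with cultivar as a block in the model. A gene was counted as shared when its adjusted p for drought was under 0.05 and its TPM (a transcript level corrected for gene length and library size) in every drought library was above, or below, that in every watered library. Rows whose best SwissProt hit named a species that is not a land plant were dropped. Of 55270 assembled genes, 29168 had enough counts for the test and 27129 of these were kept. Among the 27129, 1143 genes rose in this strict sense (4.21%) and 1285 fell (4.74%), which makes 2428 shared genes in all. By the test alone 3567 genes rose (13.1%) and 3893 fell (14.3%). Before the species rule, 27.6% of the 29168 genes passed the test, 8.86% passed it without overlap, and 9.15% had no overlap whatever their p. The rule pools the cultivars, so a shared gene need not pass within each of them. By a contrast within W1, 190 rising and 190 falling shared genes passed, against 988 and 1177 by a contrast within G1. Both contrasts came from the same fit of all 12 libraries, so the libraries of each cultivar bear on the other's counts.

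Seedlings were 4 weeks old when watering ended. The groups are CW1 and CG1, watered W1 (Weidang No. 1) and G1 (Gandang No. 1) plants taken on drought day 0, and DW1 and DG1, the same cultivars on day 4 without water, with 3 libraries in each group. Watered plants were not sampled on day 4, so drought and the 4 days between the samplings cannot be told apart. The labels describe mixes of 2 pots, whereas the study's methods count a single pot as a biological replicate, and which plants each library holds is not given. The p-values then reflect the spread among the libraries sequenced, which is technical in part if libraries share pots.

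The libraries held 12415229 to 22837632 expected counts each, and 2 of them need a remark. Replicate 1 of DG1 stood apart: genes whose best SwissProt hit is a vertebrate protein summed to 70350 TPM in it, against 16183 to 22728 TPM in the others. The 65 light-harvesting and photosystem genes tested, which mark leaf tissue, summed to 96251 to 187304 TPM in the other libraries and to 24753 TPM in this one. Replicate 1 of CW1 is called drought treated in 1 of its labels, while its title and the study place it with the watered plants. Without replicate 1 of DG1 the shared genes numbered 1271 rising and 1343 falling, and without replicate 1 of CW1 they numbered 1328 and 1365. The falling count depended most on replicate 1 of DW1, without which 2576 genes fell in every remaining library. Of the 2428 shared genes 2209 (91.0%) stayed shared whichever of the 12 libraries was left out. Levels below are medians of the 6 libraries, with the lowest and the highest library in parentheses.

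When leaves lose water, abscisic acid (ABA) is made and bound by PYR/PYL receptors, which then hold back clade A type 2C protein phosphatases (PP2Cs). This frees SnRK2 kinases, which act on ABF transcription factors and on channels of the guard cells that close the stomata. Drought also slows leaf growth, which rests on cell division, wall loosening and new ribosomes, and it promotes the breakdown of starch, proteins and chlorophyll. Gene names below are those of the best hit in another species, mostly Arabidopsis thaliana, and roles given for them are known from that species. Gene identifiers are those of the Trinity assembly without its common prefix.

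Of 32 tested receptors, phosphatases, kinases, ABF factors and XERICO genes, 14 rose and 4 fell, and 10 of the 14 were shared, while the background was 13.1% rising and 14.3% falling. The lists were drawn by gene description, from SwissProt where it had a hit, and over the 12820 kept genes with a SwissProt hit 1921 rose and 2649 fell (20.7%). The median log2 change of the 32 genes was 0.53, against 0.02 over all 27129 genes and -0.08 over those with a SwissProt hit. Without replicate 1 of DG1 13 of the 32 rose. A PP2C gene, DN14062_c0_g4 (best hit probable protein phosphatase 2C 24), measured 12.3 TPM (5.51 to 18.2) in watered and 189.8 TPM (82.3 to 227) in drought libraries. Every drought library was more than 4 times any watered one, and the log2 change was 3.79 ± 0.33 (SE, adjusted p = 0.000278). A second PP2C, DN16436_c0_g1, went from 3.83 TPM (3.01 to 5.86) to 35.9 TPM (13.5 to 44), a log2 change of 2.98 ± 0.25 (adjusted p = 0.000278). PP2CA (DN16290_c0_g3), a main brake on ABA signalling, held 26.1 TPM (20.6 to 68.1) in watered and 150.4 TPM (78.9 to 213) in drought leaves. The phosphatases hold the pathway back, and 2 further genes, annotated as HAB1, had smaller log2 changes of 1.08 ± 0.16 and 0.57 ± 0.14, only the first of them shared.

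Receptors moved in both directions. PYL9 (DN15855_c0_g2) rose from 84.6 TPM (27.4 to 126) to 183 TPM (149 to 259), and PYL11 (DN21356_c0_g6), a gene of low level, from 2.4 TPM (1.5 to 3.72) to 15.8 TPM (6.2 to 24). PYL4 (DN14705_c0_g7) moved the other way, from 21.3 TPM (13 to 31.6) to 4.63 TPM (2.88 to 7.94), with a log2 change of -2.06 ± 0.22 (adjusted p = 0.000442). A further PYL4 gene, PYL1 and PYL8 also fell by the test, at log2 changes of -1.35, -1.04 and -0.61, but their libraries overlapped. The fall of PYL1 did not pass without replicate 1 of CG1 (adjusted p = 0.0515), nor that of PYL8 without replicate 2 or 3 of CG1, replicate 3 of CW1 or any DG1 library (adjusted p = 0.0536 to 0.0776). Of the receptor genes 2 rose and 4 fell. Downstream, the ABF factors ABF2 (DN18961_c0_g2) and ABF4 (DN19537_c1_g1), which switch on ABA target genes, rose by 1.95 and 0.99 on the log2 scale and were shared. Of the kinases, 1 SAPK10 gene (DN16475_c0_g2) was shared with a log2 change of 0.57. PYL1, PYL8, PYL11, HAB1, the ABF genes, the kinase and the second PYL4 gene were chosen after their values were seen.

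XERICO, a RING-type ubiquitin ligase whose overexpression raises ABA in Arabidopsis, had a wide gap between the groups. DN20014_c0_g1 measured 27.6 TPM (14.5 to 41.6) in watered and 202 TPM (117 to 302) in drought leaves, a log2 change of 3.05 ± 0.32 (adjusted p = 0.000442). Among 22 genes of ABA synthesis and breakdown, 7 rose, 0 fell and 2 were shared (6 rising, 1 falling and 4 shared without replicate 1 of DG1). At an unadjusted p under 0.05 1 gene fell, as it did by DESeq2 and limma-trend, and with overlap judged on CPM (counts scaled to library size) 1 was shared. The shared ones were ABA2 (DN13541_c0_g9), which makes the aldehyde that precedes ABA, with a log2 change of 0.95 ± 0.19, and a CCD1 gene (DN21184_c2_g1) at 1.96 ± 0.22. CCD1 cleaves carotenoids but is not a step of ABA synthesis. NCED3 (DN17465_c0_g5), the rate-limiting dioxygenase of the route, rose by 1.51 with overlapping libraries, from 1.85 TPM (1.23 to 7.21) to 8.18 TPM (3.65 to 15.9). A CYP707A2 gene (DN17264_c0_g3), whose product breaks ABA down, rose by 1.57, also with overlap. Both were chosen after their values were seen.

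**Figure D1:**
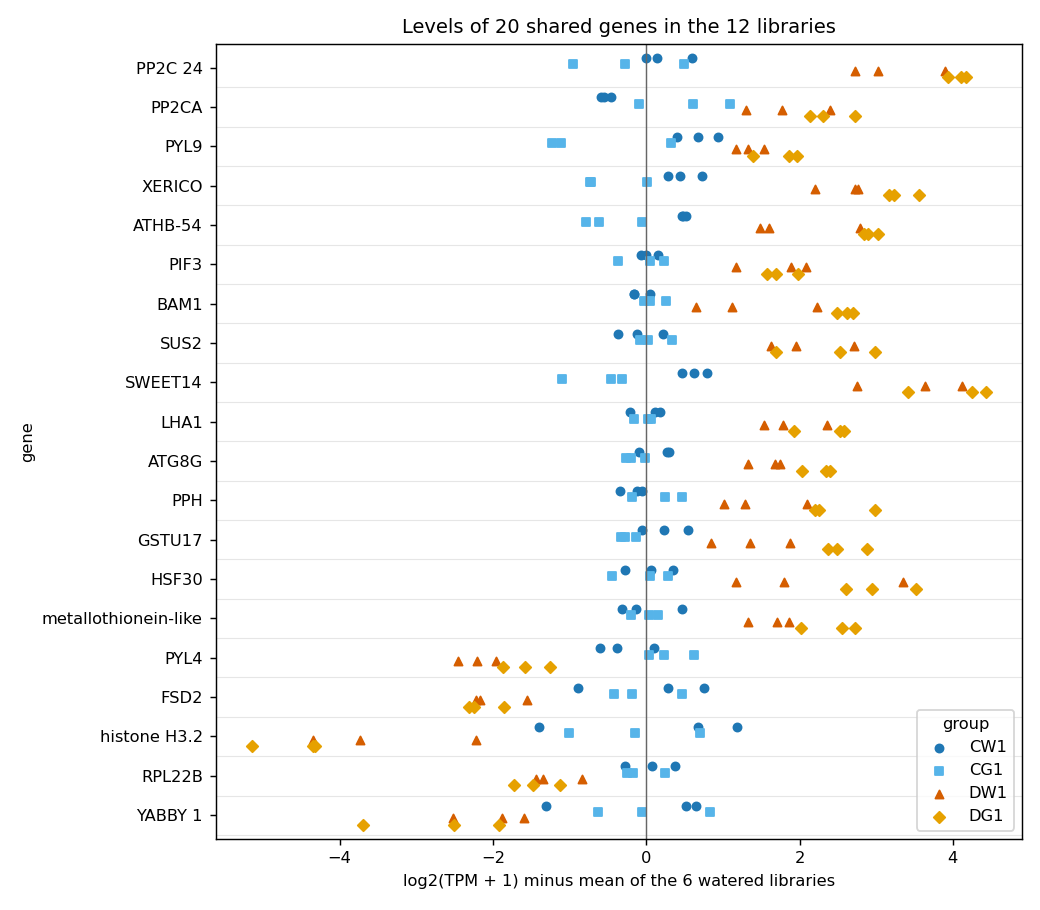
Level of 20 shared genes in each of the 12 libraries, as log2(TPM + 1) minus the mean of the 6 watered libraries for that gene (x axis). Each row is a gene and each point a library, coloured by group (CW1, CG1, DW1, DG1), and for every gene the 6 drought points lie wholly to 1 side of the 6 watered points.

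Transcription factors of several families were shared. The homeodomain-leucine zipper gene ATHB-7 (DN20532_c1_g3), an ABA and drought marker in Arabidopsis, lay at 0.220 TPM (0 to 0.840) in watered leaves, listed at 0 in replicate 1 of CW1, and at 24.4 TPM (1.29 to 111) in drought leaves. Its fitted log2 change of 6.72 ± 0.82 (adjusted p = 0.000666) rests on these near-zero levels and is no exact fold. ATHB-54 (DN13472_c1_g2) rose from 9.32 TPM (4.13 to 11.6) to 60.8 TPM (23.6 to 70.7). Leaf-patterning members of the same family fell: HAT3 (DN17414_c0_g3) by 3.0 and ATHB-51 (DN12754_c0_g1) by 4.35 on the log2 scale. In this family of 41 tested genes 7 rose (17.1%) and 11 fell (26.8%). PIF3 (DN18739_c1_g5), a bHLH factor of light signalling, rose from 18.8 TPM (14.1 to 21.8) to 66.7 TPM (43 to 81.8), with log2 changes of 1.97 in W1 and 1.98 in G1. Over 82 bHLH genes 14 rose (17.1%) and 22 fell (26.8%), with 9 rising without replicate 2 of DG1 and 9 by limma-trend.

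NAC and WRKY factors are families with many stress-induced members. Of 36 NAC genes 11 rose and 2 fell, and the falling number dropped to 0 or 1 when any single library other than replicates 1 and 2 of DW1 was left out, to 0 with no filter and to 1 with the replicate block. NAC100 (DN12942_c0_g2) went from 2.92 TPM (1.77 to 4.36) to 11.8 TPM (6.74 to 16.7). Of 48 WRKY genes 9 rose (18.8%) and 2 fell (4.17%). The falling number was 4 without replicate 1 of DW1 or by limma-trend, 5 by DESeq2 and 6 with 4 group means. WRKY51 (DN18361_c0_g8) rose from 0.815 TPM (0.380 to 1.78) to 8.35 TPM (2.44 to 12.1), and its log2 changes were 3.0 in W1 and 3.13 in G1. Of 82 AP2/ERF genes 14 rose (17.1%) and 20 fell (24.4%), with 12 falling without replicate 3 of DG1. DREB2B (DN16247_c1_g1), whose Arabidopsis namesake switches on dehydration genes, rose from 9.53 TPM (5.43 to 10.8) to 12.1 TPM (11 to 12.5). This is a log2 change of 0.56 ± 0.11, for which limma-trend on log2(TPM + 1) gave no call. AIL5 (DN19690_c0_g7), a factor of young growing tissue, fell by 1.96.

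Of 55 tested light receptors and clock genes 21 rose and 1 fell, though 13 rose without replicate 3 of CG1 and 12 without replicate 3 of DG1, and the single fall was lost without any library but replicate 2 of CG1 or replicate 1 of DW1, with no filter, with 4 group means and with other species dropped before the fit. CRY2 (DN14144_c1_g4), a blue-light receptor, rose from 29.7 TPM (21.4 to 32.6) to 42.6 TPM (37.7 to 51.3). PHOT2 (DN20471_c0_g3), which moves chloroplasts and opens stomata in blue light, went from 26 TPM (11.2 to 38.8) to 55.3 TPM (41.2 to 70.6). REVEILLE 1 (DN17691_c0_g1), a clock-driven MYB-like factor, rose from 38.6 TPM (17.4 to 57.7) to 79.9 TPM (60.8 to 95.2).

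Starch and sucrose are the main stores of carbon in leaves. Of 30 starch breakdown genes 8 rose and 2 fell, and 6 of the rising ones were shared. With overlap judged on CPM in place of TPM 3 rising and 0 falling ones were shared. The 2 falling ones, AMY3 (DN16524_c0_g1) and a plastid glucan phosphorylase (DN17084_c0_g2), had small log2 changes of -0.55 and -0.37. The call of the phosphorylase was lost whichever library was left out and with RLE factors, no filter or 4 group means, and that of AMY3 without replicate 2 or 3 of CG1, replicate 1 of CW1, replicate 1 or 3 of DG1 or replicate 2 of DW1. Beta-amylase BAM1 (DN14349_c0_g4), the drought-induced amylase of guard and mesophyll cells, rose from 49.7 TPM (44 to 59) to 258 TPM (78 to 327), a log2 change of 2.11 ± 0.29 (adjusted p = 0.000957). DPE2 (DN21270_c0_g3), which uses the maltose that amylase frees, rose by 0.79. Starch synthase SS4 (DN16219_c0_g1), needed to start granules, fell from 14.9 TPM (12 to 29.4) to 4.73 TPM (0.310 to 6.45).

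Of 57 genes of sucrose and fructan metabolism 20 rose and 10 fell (13 rose with no filter). Sucrose synthase SUS2 (DN18770_c2_g1) rose from 20.2 TPM (15.9 to 26.4) to 104 TPM (66.1 to 172), with log2 changes of 2.39 in W1 and 2.49 in G1. A sucrose-phosphate synthase, SPS4 (DN20176_c0_g3), rose by 1.84 ± 0.30. The falling members included the plastid fructokinase-like FLN1 (DN15481_c1_g7) at -1.36 ± 0.18, a part of the plastid transcription machinery rather than a sugar enzyme. Of 35 sugar transporter genes 6 rose (17.1%) and 3 fell (8.57%), with 1 falling without replicate 2 of CG1 or of DG1, at a median log2 change of -0.04. SWEET14 (DN14396_c1_g3), a sucrose exporter, lay at 2.33 TPM (0.420 to 4.29) in watered and 44.6 TPM (19.6 to 64.8) in drought leaves. Its log2 change was 4.48 ± 0.50 (adjusted p = 0.000517). STP13 (DN14560_c0_g1), a hexose importer, rose by 2.98, and SWEET16 (DN16576_c0_g3), a sugar carrier of the vacuole membrane, from 2.08 TPM (1.35 to 5.26) to 18.2 TPM (7.08 to 31.9). Inositol-3-phosphate synthase (DN20513_c1_g1), the first step towards inositol and galactinol, was 1 of the most abundant rising genes, at 279 TPM (179 to 359) and 1715 TPM (1062 to 2397). Of the 26 raffinose and trehalose genes 6 rose and 2 fell (1 without replicate 3 of CW1, DG1 or DW1 or replicate 2 of DW1), and the raffinose synthase RFS1 (DN16759_c0_g4) fell by 3.64.

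Plasma membrane proton pumps energise uptake and stomatal opening. Both LHA1 genes named here rose, DN20784_c0_g7 from 1.37 TPM (0.980 to 1.61) to 9.3 TPM (5.68 to 12.8) and DN19326_c0_g1 from 4.2 TPM (3.45 to 6.69) to 24.1 TPM (12.9 to 34.5). The first had a log2 change of 2.86 ± 0.24 (adjusted p = 0.000278). The more abundant PMA4 (DN20466_c1_g2) went from 149 TPM (120.1 to 193) to 290.0 TPM (212 to 544). These pumps are a family of close relatives, and reads can be divided between such genes in ways the counts do not show. Of 97 pump and channel genes 25 rose and 8 fell, and 12 of the rising ones were shared. The nitrate and hormone transporter NPF3.1 (DN21684_c1_g1) rose from 10.6 TPM (5.59 to 13.9) to 91.7 TPM (61.5 to 139.7), with log2 changes of 3.16 in W1 and 3.51 in G1.

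Of the 49 gene lists examined, autophagy had the largest share of rising genes. Autophagy encloses cell contents in membranes and delivers them to the vacuole. Of 22 tested genes 15 rose and 0 fell, 11 of them shared, and 13 rose without replicate 1 of DG1. At an unadjusted p under 0.05 still 0 fell, as by DESeq2. The median log2 change was 0.62. The ATG8 proteins, which are coupled to the growing membrane, had 5 shared genes. ATG8G (DN14955_c1_g3) rose from 27.5 TPM (23.7 to 35.4) to 109 TPM (73.4 to 155), a log2 change of 2.06 ± 0.19 (adjusted p = 0.000339). ATG8E (DN17418_c1_g2), the most abundant, rose from 97.4 TPM (50.5 to 135) to 187 TPM (180.4 to 253). ATG8I (DN19823_c1_g1) and ATG8F (DN21246_c1_g1) rose by 1.10 and 1.08. Of the proteins that shape the membrane, ATG9 (DN17806_c1_g1) rose by 0.62 and ATG18B (DN12983_c1_g1) by 1.09, both shared and picked after their values were seen. ATG5 (DN14961_c0_g4) and ATG3 (DN13551_c1_g2), which couple ATG8 to lipid, did not pass the test and were chosen after their values were seen, at log2 changes of -0.36 ± 0.18 and 0.21 ± 0.10. Summed over the 22 genes, the level was 370.1 to 549.5 TPM in watered and 714.7 to 984.8 TPM in drought libraries, with no overlap.

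Chlorophyll is made and taken apart in plastids. Of 11 breakdown genes 6 rose and 1 fell. STAY-GREEN (DN14798_c1_g2), which starts chlorophyll degradation and was chosen after its values were seen, rose from 2.6 TPM (1.91 to 3.85) to 25.9 TPM (6.41 to 68.3). Pheophytinase PPH (DN14876_c1_g1), the next step, rose from 11.1 TPM (9.08 to 16.7) to 55.9 TPM (24.9 to 100.5), and pheophorbide a oxygenase PAO (DN14565_c0_g1), which opens the ring, from 18.2 TPM (14.4 to 23.8) to 53.4 TPM (25.4 to 71.8). These act in succession on 1 route. Chlorophyllase-2 (DN18723_c0_g3), which cuts off the phytol tail, rose from 2.44 TPM (0.840 to 3.77) to 39.4 TPM (4.12 to 89.5). Chlorophyll(ide) b reductase NOL (DN20281_c0_g1) was the exception and fell by 1.16. Of 26 synthesis genes 10 fell and 1 rose, the rise being lost without any library but replicate 3 of CW1, replicate 1 of DG1 or replicate 1 of DW1, and also with no filter, 4 group means or limma-trend. Protochlorophyllide reductase (DN17466_c0_g1) fell from 343 TPM (257 to 474) to 80.3 TPM (7.37 to 198), and uroporphyrinogen decarboxylase (DN16815_c0_g2) from 186 TPM (154 to 224) to 59.3 TPM (35 to 107). Of 65 light-harvesting and photosystem genes 0 rose and 4 fell (2 without replicate 2 of DG1). DESeq2 called 0 rising and 7 falling, the same numbers as at an unadjusted p under 0.05. Their median log2 change of -0.21 was 0.06 without replicate 1 of DG1.

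**Figure D2:**
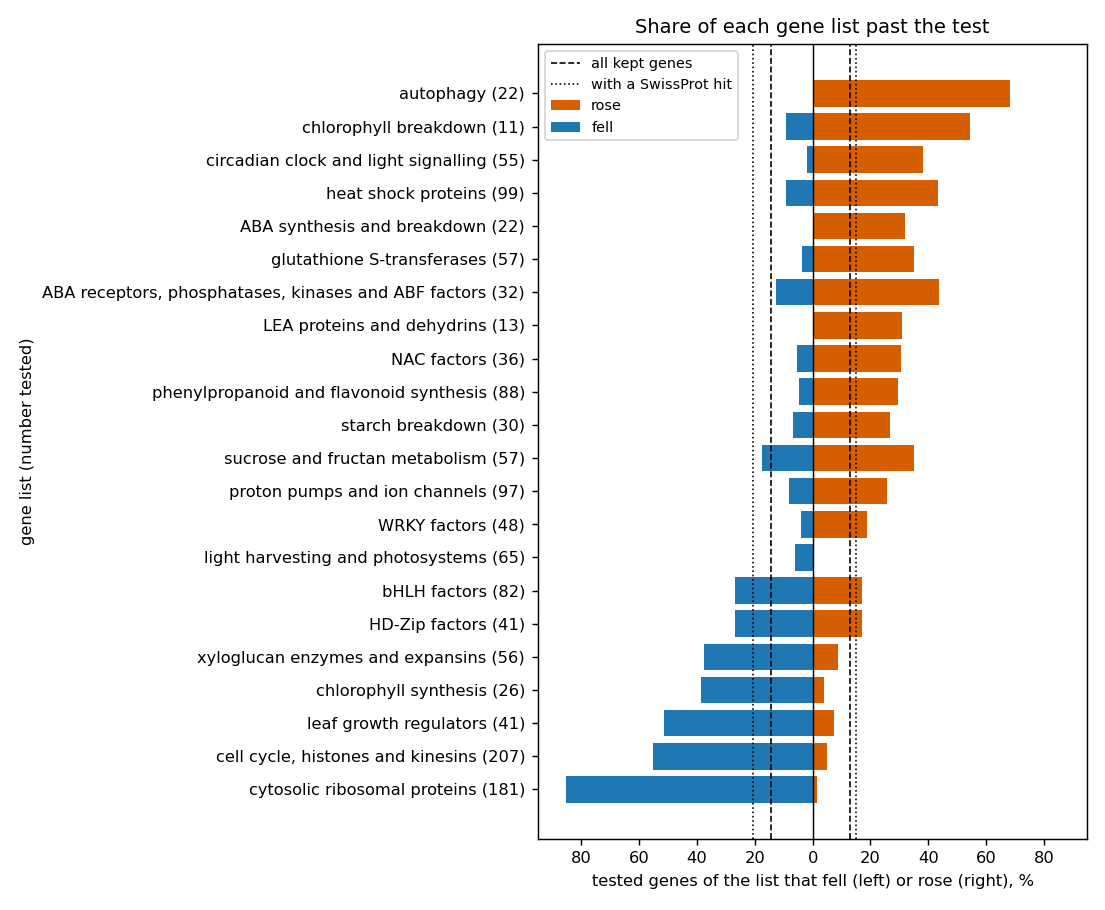
Share of tested genes that rose (right) or fell (left) under drought in 22 gene lists, in percent of the tested genes of each list (x axis), with the number tested after each name. The dashed lines mark the background of 13.1% rising and 14.3% falling over all 27129 genes and the dotted lines that of 1921 rising and 2649 falling of 12820 genes with a SwissProt hit, in percent, and the bars of the autophagy and ribosomal lists reach farthest in opposite directions.

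Of 82 genes for peroxidases, catalases and superoxide dismutases, which remove oxidants, 15 rose and 11 fell. The rising number was 9 without replicate 2 or 3 of CW1, and the falling number 7 and 5 without replicates 1 and 3 of DG1 and 17 without replicate 1 of DW1. Of 57 glutathione S-transferase genes 20 rose and 2 fell, the falling number being 0 without replicate 1 or 3 of CG1 or replicate 3 of DG1, 1 without replicate 2 of CG1 or replicate 1 or 3 of CW1, and 4 without replicate 1 of DW1. GSTU17 (DN13342_c0_g1) rose from 71.5 TPM (60.6 to 112) to 339.8 TPM (137 to 568). Monodehydroascorbate reductase (DN14022_c0_g1), which recycles vitamin C, rose from 165 TPM (119 to 198) to 307 TPM (227 to 1173), its highest value being that of replicate 1 of DG1. Plastid iron superoxide dismutases went down. FSD2 (DN16824_c0_g1) fell from 19.7 TPM (9.67 to 32.2) to 3.32 TPM (2.97 to 5.72), a log2 change of -2.54 ± 0.23 (adjusted p = 0.000339), and FSD3 (DN18702_c1_g3) fell by 1.40. Both are parts of the plastid transcription complex in Arabidopsis. The plastid thioredoxin-like CITRX1 (DN15247_c0_g1) fell from 33.7 TPM (16.2 to 41.1) to 6.64 TPM (5.13 to 8.52).

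Of 99 tested heat shock genes 43 rose and 9 fell, and 12 of the rising ones were shared (28 without replicate 3 of DW1, 19 without replicate 3 of CW1). Over all 27129 kept genes 3567 rose, and 1143 of these (4.21% of the 27129) were shared. The heat shock factor HSF30 (DN20919_c0_g1) rose from 8.94 TPM (6.01 to 11.2) to 65.1 TPM (20.5 to 109). MED37C (DN14403_c0_g2), an HSP70-type protein by sequence, rose from 11.7 TPM (9.08 to 16.5) to 90.8 TPM (38 to 183) with a log2 change of 2.96 ± 0.27 (adjusted p = 0.000339). Late embryogenesis abundant (LEA) proteins and dehydrins, which protect drying cells, had 4 of 13 genes rising and 0 falling, also by DESeq2 and at an unadjusted p under 0.05, and 0 shared (up to 2 without 1 library). DN14809_c1_g6, annotated as SENESCENCE-ASSOCIATED GENE 21 and chosen after its values were seen, lay at 269 TPM (148 to 744) in watered and 1041 TPM (572 to 1681) in drought leaves, so that its groups overlapped in spite of a log2 change of 1.76 ± 0.36.

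Phenylpropanoids and triterpenes are specialised products of many herbs. Of 88 phenylpropanoid and flavonoid genes 26 rose and 4 fell (16 rising without replicate 3 of CG1 or replicate 2 of CW1), while 4 and 2 were shared (8 or 9 rising without replicate 2 of CG1 or replicate 1 of DW1, 5 falling without replicate 2 of DW1). By DESeq2 or limma-trend 7 fell, and with overlap judged on CPM 2 rising ones were shared. Trans-cinnamate 4-monooxygenase (DN16278_c1_g1), the second enzyme of the route, rose from 90.5 TPM (77 to 103) to 171 TPM (122 to 400.1). A more abundant HST gene (DN17978_c0_g1), which builds the shikimate esters on the way to lignin and chlorogenic acid, rose from 48.4 TPM (40.3 to 53.1) to 104 TPM (64.3 to 176). A caffeoyl-CoA O-methyltransferase (DN16317_c0_g1) fell from 64.9 TPM (54 to 110.2) to 20.5 TPM (3.03 to 39.3).

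Of 59 terpenoid genes 7 rose and 8 fell. Both shared beta-amyrin synthases, which close the ring of triterpenes, rose: DN18477_c1_g3 from 9.46 TPM (3.43 to 21.9) to 31.5 TPM (23.2 to 45.1) and DN21489_c2_g1 from 0.875 TPM (0 to 5.57) to 12.9 TPM (5.66 to 90.9). The second did not pass without replicate 1 of DG1 (adjusted p = 0.066). Isopentenyl-diphosphate isomerase (DN13067_c0_g3), which balances the 5-carbon units, fell from 122 TPM (104 to 136) to 49.7 TPM (40.3 to 65.3), and hydroxymethylglutaryl-CoA synthase (DN19897_c1_g5), which works before it in the mevalonate route, fell by 0.77. The sterol methyltransferase SMT2 (DN14599_c0_g1) fell from 194 TPM (140.2 to 246) to 67.4 TPM (49.5 to 98.5). Of 52 desaturase genes 4 rose (7.69%) and 6 fell (11.5%), both shares again below those of genes with a SwissProt hit. The falling number was 3 without replicate 3 of DG1, 13 without replicate 1 of DW1, 12 by DESeq2 and 10 with 4 group means. Among those that fell was the omega-3 desaturase FAD7 (DN20676_c1_g1), which makes trienoic lipids of the plastid, at -1.82 ± 0.43. Of 32 genes of branched-chain amino acid breakdown 9 rose and 3 fell (5 rose with no filter or by limma-trend). Isovaleryl-CoA dehydrogenase IVD (DN16747_c0_g3), which acts in leucine breakdown in mitochondria, rose from 15.3 TPM (13.1 to 18.7) to 24.7 TPM (18.9 to 27.3), and the plastid aminotransferase BCAT5 (DN19162_c2_g5), which serves synthesis rather than breakdown, fell by 0.68.

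Of 52 MYB factors 14 rose and 6 fell (9 rising without replicate 2 of CG1, replicate 2 of CW1 or replicate 1 of DG1, 10 falling without replicate 1 of DW1, and 9 and 8 rising with no filter and by limma-trend). Of the 2 genes annotated as MYB39 that are named here, DN19789_c0_g4 rose from 1.05 TPM (0.210 to 1.6) to 5.66 TPM (2.87 to 16.4), and DN16545_c0_g1, listed at 0 in 5 drought libraries, fell from 1.1 TPM (0.410 to 4.12) to 0 TPM (0 to 0.0700). PER51 (DN21523_c0_g9), a peroxidase of the secreted plant class, rose from 1.54 TPM (0.970 to 3.27) to 16.1 TPM (5.83 to 31.5). The 2-Cys peroxiredoxin BAS1 (DN15116_c0_g5), an enzyme of another family that removes peroxide in plastids, fell from 757 TPM (628 to 1076) to 389 TPM (282 to 574). The tonoplast aquaporin TIP1-3 (DN12252_c0_g1), a water channel, rose from 1.52 TPM (0.430 to 2.34) to 7.57 TPM (2.48 to 24.2). It was 1 shared gene among 28 aquaporins, of which 3 rose (10.7%) and 3 fell (10.7%), both below the shares of genes with a SwissProt hit. Without replicate 2 of CW1 1 rose, and the falling number was 1 without replicate 3 of DG1 and 13 without replicate 1 of DW1. DESeq2 called 6 falling, and the replicate block and limma-trend 5 each.

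Of 207 tested cell cycle genes, histones and kinesins 114 fell and 10 rose (6 without replicate 3 of CG1 or replicate 2 of DG1 or with no filter, 4 by limma-trend). Of these 52 and 3 were shared (5 rising ones with overlap judged on CPM), and without replicate 1 of DW1 the shared falling ones numbered 96. The median log2 change was -1.03. Histone H3.2 (DN14452_c0_g1) fell from 1059.9 TPM (319.9 to 1932) to 41.2 TPM (23.1 to 181), a log2 change of -4.08 ± 0.51 (adjusted p = 0.000716). Histone H2B (DN13558_c0_g1) fell from 2021 TPM (817 to 3544) to 351 TPM (290.4 to 604). The highest drought value of both was that of replicate 1 of DW1. Of the shared genes that rose, cyclin T1-4 (DN16551_c0_g3, 0.70) and CDKF-4 (DN19488_c0_g2, 0.67) are not drivers of the division cycle by their known roles, limma-trend gave no call for CDKF-4 (adjusted p = 0.0525), and KIN-14O (DN18321_c0_g1, 1.34) is a kinesin. Summed over the list, watered libraries held 10656 to 34446 TPM and drought libraries 5957 to 8596 TPM. In leaf RNA, fewer dividing cells and less of these transcripts per cell cannot be told apart.

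Of 181 tested cytosolic ribosomal protein genes 154 fell and 3 rose (1 without replicate 1 of CG1 or CW1, replicate 2 of CW1 or DG1 or replicate 3 of DG1 or with no filter, 5 by DESeq2), the falling number staying between 148 and 156 when single libraries were left out, and the median log2 change was -1.10. Of these, 89 were shared, and 138 without replicate 1 of DW1. RPS19C (DN20347_c1_g4) fell from 869 TPM (744 to 1288) to 345 TPM (319 to 685), RPL38A (DN15762_c1_g2) from 842 TPM (583 to 1016) to 379.6 TPM (282 to 500.0) and RPL22B (DN18273_c0_g2) from 275 TPM (234 to 369) to 107 TPM (84.7 to 158). The log2 change of RPL22B was -1.31 ± 0.14 (adjusted p = 0.000442). The 181 genes together took 35988 to 63041 TPM in watered and 17752 to 33346 TPM in drought libraries. The shared riser, DN20351_c1_g8, is only an L18a-like protein (0.62). The poly(A)-binding protein PAB2, which serves translation, had a pair of genes that fell, DN13587_c1_g6 from 252 TPM (159 to 302) to 65.8 TPM (47.5 to 91) and DN13711_c0_g2 from 106 TPM (86.3 to 142) to 29.1 TPM (17.1 to 41.4). Ribosomal protein genes occur in close copies, and how reads were shared among them is uncertain.

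**Figure D3:**
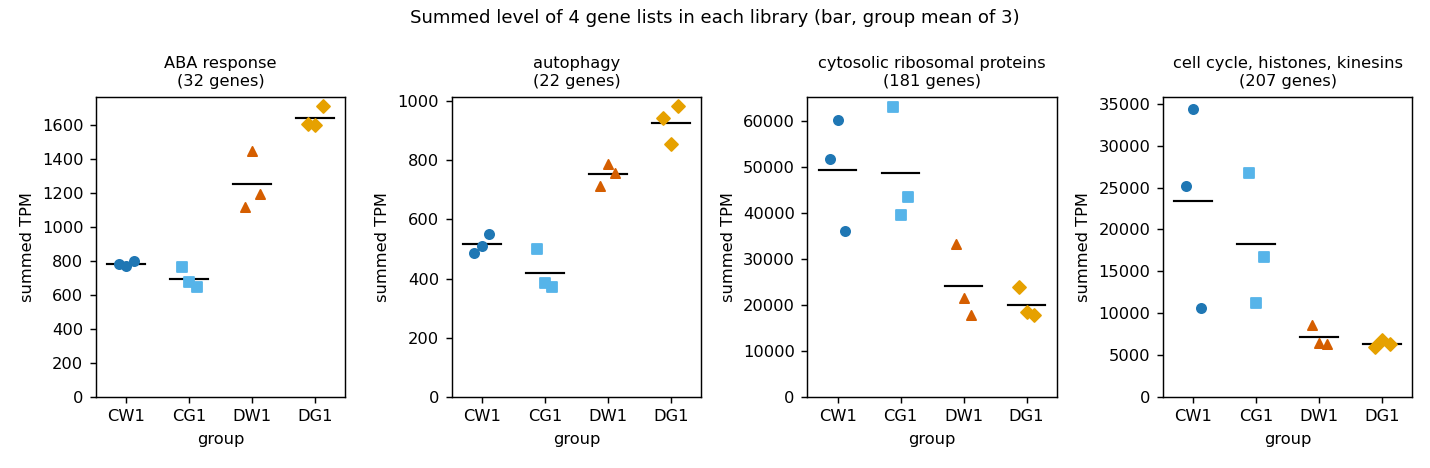
Summed TPM of 4 gene lists in each of the 12 libraries, 1 panel per list with its own linear y axis from 0, points coloured by group and a bar at each group mean. Watered and drought libraries do not overlap in any panel, the ABA and autophagy sums being higher and the ribosomal and cell cycle sums lower under drought. Many genes of these lists were chosen as shared because they do not overlap, so the separation is a description. Among other lists summed, LEA and guard cell sums did not overlap either, whereas housekeeping, heat shock, light-harvesting, vascular and root sums did.

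Growing cells loosen and rebuild their walls. Of 56 xyloglucan enzyme and expansin genes 21 fell and 5 rose, with 13 falling without replicate 3 of DG1, and 8 falling ones were shared (19 without replicate 1 of DW1). XTH9 (DN14765_c1_g1), which cuts and rejoins xyloglucan in growing walls, fell from 173 TPM (97.1 to 305) to 15 TPM (2.54 to 73.7). XTH30 (DN14813_c0_g3) rose from 12.1 TPM (8.54 to 16.2) to 36.6 TPM (27.1 to 182). Of 57 beta-1,3-glucanase and callose genes 22 fell and 6 rose. Glucanase 12 (DN18311_c0_g3) fell from 106 TPM (71.9 to 139.7) to 16.6 TPM (3.15 to 48.6), whereas callose synthase CALS2 (DN16838_c0_g2), which makes the polymer that glucanases cut, rose from 11.9 TPM (10.2 to 14.9) to 24.9 TPM (21.9 to 34.8). Of 214 further cellulose, pectin and lignin genes 68 fell and 18 rose (10 without replicate 2 or 3 of CG1 or replicate 1 of CW1, 11 with no filter and 9 by limma-trend). The secondary-wall cellulose synthase CESA7 (DN20185_c1_g2) fell by 0.84 ± 0.23 and pectinesterase PMEU1 (DN18657_c1_g2) by 1.57 ± 0.35.

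Regulators of leaf growth set the size and sides of the blade. Of 41 TCP, YABBY, KANADI and GRF genes 21 fell and 3 rose, at a median log2 change of -0.75 and with 1 rising without any library but replicate 1 of CW1 or DG1, where 2 rose, or replicate 1 of DW1, where 5 rose. DESeq2 called 5 rising, limma-trend 1 and the test with no filter 0. YABBY 1 (DN15273_c1_g4), a factor of the lower leaf side, fell from 90.0 TPM (29.7 to 134) to 15.8 TPM (4.87 to 24.3). GRF12 (DN20291_c0_g6), a growth-regulating factor, fell from 45 TPM (22.9 to 49) to 8.3 TPM (0.280 to 18.6), but its call was lost without any 1 of 7 libraries (all CG1 libraries, replicates 1 and 2 of CW1, replicate 3 of DG1 and of DW1). SPEECHLESS (DN19192_c0_g1), which starts the stomatal lineage, went from 3.98 TPM (0.960 to 6.99) to 0.0550 TPM (0 to 0.460), being listed at 0 in replicate 2 of DG1. PROTODERMAL FACTOR 1 (DN21369_c0_g2), a marker of the outer layer, fell from 594 TPM (341 to 1191) to 62.8 TPM (2.41 to 143). Of 18 epidermal and guard cell genes 7 fell and 0 rose in the full set. At an unadjusted p under 0.05 3 rose, and 1 rose by DESeq2, with 4 group means or without replicate 1 of DG1. The mature guard cell channels SLAC1 (DN13246_c0_g2) and KAT1 (DN16153_c0_g2) did not pass and were chosen after their values were seen, at log2 changes of 0.74 ± 0.32 and 0.66 ± 0.29, but KAT1 passed without replicate 1 of DG1 (adjusted p = 0.0259). ERECTA (DN15960_c0_g1), a receptor kinase of stomatal spacing and organ size, fell from 101 TPM (55 to 134) to 22.9 TPM (5.39 to 37.1).

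Of 110 auxin genes 20 fell (18.2%) and 13 rose (11.8%), both shares below those of genes with a SwissProt hit, with GH3.6 (DN13853_c1_g5), which conjugates auxin to amino acids, falling from 41 TPM (24 to 62.3) to 2.78 TPM (1.17 to 11.1). Of 26 ethylene genes 11 rose and 0 fell, also by DESeq2 and at an unadjusted p under 0.05, and 2 of the 3 shared ones are annotated only as homologs of the oxidase (6 were shared without replicate 3 of CW1 or replicate 1 of DW1). An ACC oxidase (DN13576_c3_g1), which makes ethylene, rose from 156 TPM (100.4 to 173) to 340.2 TPM (224 to 414). Of 69 cytokinin, gibberellin and brassinosteroid genes 11 rose and 13 fell, the rising number being 6 without replicate 1 of CW1 and 7 without replicate 2 or 3 of CG1, replicate 2 of CW1, replicate 1 of DG1 or replicate 3 of DW1, 6 with no filter and 7 by limma-trend. The falling number was 8 without replicate 2 of CW1 or replicate 3 of DG1. The gibberellin receptor GID1B (DN19761_c1_g2) rose from 8.54 TPM (5.73 to 13.2) to 36.6 TPM (28.5 to 106), and GA2OX8 (DN14479_c0_g1), which inactivates gibberellins, from 6.45 TPM (4.12 to 8.71) to 25.2 TPM (12.6 to 29.4). LOG8 (DN19108_c1_g5), which activates cytokinins, fell from 32.4 TPM (26.3 to 41.3) to 15.1 TPM (12.7 to 17.5).

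The shared gene of highest mean level was a type 3 metallothionein-like gene (DN18028_c0_g2), a small metal-binding protein. It held 10106 TPM (8364 to 14428) in watered and 40075 TPM (26289 to 68680.3) in drought leaves. Its log2 change was 2.07 ± 0.38 (adjusted p = 0.00283), for which limma-trend on log2(TPM + 1) gave no call. The vacuolar proteases aleurain (DN19026_c0_g2) and RD19A (DN18158_c0_g1), which take proteins apart and of which RD19A is named for its induction by drying, rose from 455 TPM (373 to 554) to 1169 TPM (865 to 1618) and from 405 TPM (300.4 to 560.0) to 1021 TPM (825 to 1693). Among falling genes the defensin SD2 (DN20509_c1_g1), a small antimicrobial peptide, fell from 1718 TPM (1423 to 1993) to 463 TPM (382 to 624). Tubulin alpha (DN17190_c0_g1), often used as a reference gene, fell from 1614 TPM (1109.5 to 1983) to 455 TPM (262 to 886), while a polyubiquitin (DN14098_c0_g5) rose from 51.3 TPM (33.1 to 73.3) to 229.6 TPM (93.3 to 502). Of 151 genes of the housekeeping list 50 fell and 15 rose (8 by limma-trend).

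Gene length was a median of 1512 bp in rising and 1518 bp in falling genes, against 1117 bp over the 27129 genes. The median level was 14.2 TPM in rising and 20.1 TPM in falling genes, against 7.36 TPM over all. A SwissProt hit was given for 54.9% of rising and 72.1% of falling genes, and 262 rising and 101 falling genes had neither a SwissProt nor an NR hit. Among genes with a SwissProt hit, 193 of 927 falling ones (20.8%) carried the word chloroplastic in the description, against 51 of 627 rising ones (8.13%) and 10.6% of all. Peroxisomal was written for 13 rising (2.07%) and 0 falling genes, against 0.608% of all. The rule dropped rows by their SwissProt species, and level bears on passing the filter and the test. The part of length, level and annotation in passing the rule was not tested, and these values are descriptions.

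The fitted change was larger in G1 for most shared genes, which is a description, since each cultivar's libraries also chose them. The median log2 change of rising genes was 1.11 in W1 and 1.59 in G1, and that of falling genes was -1.0 in W1 and -1.58 in G1. The change was larger in G1 for 947 of 1143 rising (82.9%) and 1139 of 1285 falling genes (88.6%), against 65.3% of all 27129 genes. Without replicate 1 of DG1 these were 77.6%, 86.3% and 65.0%, and without replicate 1 of DW1 75.7%, 81.4% and 57.6%. Each cultivar's change was a contrast with its own watered libraries, taken from the same fit of all 12 libraries. The interaction of cultivar and drought was tested gene by gene, and with 3 libraries per group a gene that did not pass may still differ. At an unadjusted p under 0.05 it held for 223 rising (19.5%) and 234 falling shared genes (18.2%), against 9.42% of the 27129. After adjustment it passed for 4 of 29168 genes (0.0137%), and 1 of them was shared (2769 genes at an unadjusted p under 0.05, 371 by DESeq2). Without replicate 1 of CG1 308 genes passed, without replicate 1 of DG1 8, without replicate 2 of DW1 2, and 0 without replicate 2 or 3 of CG1, any CW1 library or replicate 2 of DG1. This gene, a xyloglucan endotransglucosylase (DN13462_c0_g3), fell by 4.31 in G1 and by 1.36 in W1 on the log2 scale, an interaction of -2.94 ± 0.33 (adjusted p = 0.023). Its TPM was 64.7 ± 11.8 in CW1, 23.4 ± 2.04 in DW1, 109 ± 17.9 in CG1 and 5.37 ± 1.73 in DG1 (mean ± SD, n = 3). XERICO had log2 changes of 2.21 in W1 and 3.90 in G1, and SWEET14 of 3.38 and 5.69, and neither passed the test of the interaction (adjusted p = 0.339 and 0.38). By the contrast within each cultivar, 190 of the 1143 rising shared genes passed in W1 and 988 in G1, with 186 in both and 151 in neither. Of the 1285 falling ones 190 passed in W1 and 1177 in G1, with 187 in both and 105 in neither. Over all 27129 genes 432 passed in W1 and 6254 in G1. Without replicate 1 of CW1 1 rising and 0 falling shared genes passed in W1, and without replicate 1 of DW1 417 and 451 did. Leaving out replicate 1 of DG1, a G1 library, gave 261 and 301 in W1.

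**Figure D4:**
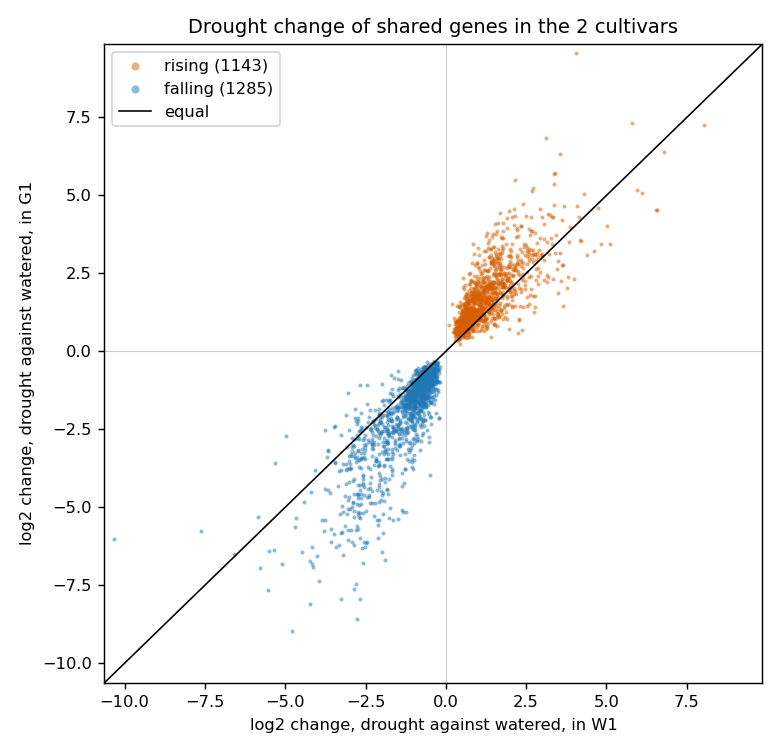
Log2 change under drought in W1 (x axis) and in G1 (y axis) of the 1143 rising and 1285 falling shared genes, 1 point per gene, with a line where both are equal. Most rising points lie above the line and most falling points below it, 947 and 1139 genes being farther from 0 in G1.

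Just inside the rule, the REF/SRPP-like gene DN13999_c0_g5 had a lowest drought value of 149.7 TPM and a highest watered value of 149.6 TPM, and RPS12 (DN21678_c2_g2) a lowest watered value of 149.4 TPM and a highest drought value of 149.2 TPM. Just outside it lay a CYP72A219 gene (DN13278_c1_g1) and PFP-BETA (DN21728_c1_g1), which tied between the groups at 7.87 and 90.9 TPM. These values chose the genes and carry no test.

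Of the 21 genes that the study listed as transcription factors or measured by qRT-PCR, 7 were shared, and the primers used for them are shown because they set the stretch of each transcript that qRT-PCR measures. All are written 5′ to 3′ in lower case, upstream primer first, for the 5 shared genes that have them.
HST (DN14056_c0_g1) upstream: ctcgggttttgaaagaggcc
HST (DN14056_c0_g1) downstream: gctcaggcgaaggtgtaaag
GSTU17 (DN17746_c2_g5) upstream: ttagcttgggtgagggtagc
GSTU17 (DN17746_c2_g5) downstream: agccctgatcactgctttct
ARR17 (DN15371_c3_g5) upstream: ggggagttgttggttagtgc
ARR17 (DN15371_c3_g5) downstream: cacaagtttgcggtcgatga
SS4 (DN16219_c0_g1) upstream: tgaccccagattcaggcatt
SS4 (DN16219_c0_g1) downstream: accatcccacgaaaagtcct
At1g11820 (DN17456_c0_g1) upstream: tgcgacggttgataatgcag
At1g11820 (DN17456_c0_g1) downstream: actggcgttgagttcccata
HST, an acyltransferase of the phenylpropanoid route, rose from 12.8 TPM (8.38 to 17.5) to 36.7 TPM (22.7 to 113), and this GSTU17 gene from 4.65 TPM (1.67 to 5.6) to 14.9 TPM (8.76 to 45.4). ARR17, a cytokinin-induced response regulator, fell from 24.8 TPM (13.6 to 29.4) to 6.0 TPM (1.66 to 8.06). The beta-1,3-glucanase At1g11820 fell from 27.6 TPM (20.2 to 32.4) to 5.61 TPM (4.62 to 18.5). SS4 and PIF3 were given before, and BHLH80 (DN18631_c1_g4) rose from 8.88 TPM (6.44 to 12.6) to 25.1 TPM (15.9 to 53.4). KAN4, FIT and CRF4 fell and PRP1 and PER52 rose by the test, with overlapping libraries, at log2 changes of -2.24, -1.87, -2.80, 2.54 and 2.18. The other 9 did not pass the edgeR test over both cultivars in the full set, their adjusted p running from 0.0514 (WRKY22) to 0.9995 (LAR). Without replicate 1 of DW1, however, 5 of these passed (LAR, CEL3, At5g56590, TCP9 and WRKY22), with adjusted p of 0.0368, 0.000135, 0.000641, 0.0440 and 0.0382, and WRKY22 also without replicate 1 of CG1. In the full set WRKY22 passed by DESeq2 (adjusted p = 0.00957), with 4 group means (0.0268) and by limma-trend (0.0381), TCP9 by DESeq2 (0.0401), and At5g56590 with the replicate block (0.031) and by limma-trend (0.0183). FIT did not pass without replicate 3 of DG1 (adjusted p = 0.0532), nor PER52 without 6 single libraries (replicate 2 of CG1, replicates 2 and 3 of CW1, replicates 1 and 2 of DG1 and replicate 3 of DW1). ANP2 (DN981_c0_g1) lay at 4.79 TPM (0.280 to 79.3) in watered and 1.48 TPM (0.190 to 7.71) in drought leaves. The study drew its transcription factor list from these libraries, so the directions of those genes are not independent evidence. It took the list from genes it called drought responsive in G1 only, by its methods at a stricter adjusted p and with a minimum fold. The test here pools both cultivars, so a gene that did not pass it is not thereby at odds with the study. For the genes it measured by qRT-PCR, the study reported changes that matched those of its sequencing. The study proposes that a change only in G1 may add to its drought tolerance. PIF3 and BHLH80 of its transcription factor list were shared here, by a pooled rule that does not ask a gene to pass within W1. Their place among the shared genes is therefore no test of that proposal.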

How the data were processed

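Leaf RNA of 12 libraries, 3 in each of 4 groups, was sequenced and analysed as 1 table of assembled genes. Per the study's methods the authors trimmed reads for quality, assembled them with Trinity and estimated levels with RSEM. They called a gene expressed above a TPM threshold, but the deposited table also holds genes below it. The deposited table holds expected counts and TPM for every gene and library. Genome builds of the mouse that the labels list do not apply to this plant and were not used. Expected counts were rounded to whole numbers and filterByExpr took out rarely counted genes, both before TMM scaling. The drought effect was tested with the quasi-likelihood test of edgeR 4.0.16 in R 4.3.3, with cultivar as a block and Benjamini-Hochberg adjustment over 29168 genes, and rows whose SwissProt species is not a land plant were dropped afterwards. The interaction and the changes within each cultivar came from the same test, as contrasts of the 4 group means in a fit of all 12 libraries. Adjusted p-values in the text are from these models. Standard errors (SE) of log2 changes were derived from the same tests, as the absolute change over the square root of the F statistic, and are approximate. A gene passed at an adjusted p under 0.05. Library totals of 12415229 to 22837632 expected counts limit what can be seen of rare transcripts. The functions were tested on simulated data.

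The naming rule took, among shared genes with a SwissProt description, those with the smallest adjusted p, the highest mean TPM and the widest gap between the groups, no more than 3 rising and 3 falling genes from each of 49 lists by mean TPM, and every gene of the study's transcription factor and primer lists. The members and the lists were chosen with earlier results of these data known. Genes named outside the rule were chosen after their values were seen, and the text says which. Alternatives were RLE size factors, DESeq2 1.42.0, limma-trend (limma 3.58.1) on log2(TPM + 1), no filter on low counts, dropping other species before the fit, 4 group means, the replicate number as a block, a required SwissProt hit, overlap judged on TMM-normalized CPM, a 4-fold minimum, and leaving out each library. Sequences of the assembled genes were not used here.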

Additional observations from a re-analysis of the deposited data

Results flagged for a closer look

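Of 238 sets of 6 libraries (watered or drought, for genes named in the text and for the sum of vertebrate hits), 28 held a highest or lowest library whose gap to its neighbour, as a share of the whole range of the set, was above the critical value of 0.625. Not every gene named in the text was among those examined. That value is passed in about 1 in 20 sets only when all 6 values are drawn from 1 normal distribution. The sets here mix both cultivars on TPM and many genes move together, so the number flagged cannot be read against that rate. Most lay in 2 libraries, and the reason was not tested.

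Replicate 1 of DG1 was the highest drought library, with this share in parentheses, for ATHB-7 (0.683), GID1B (0.782), STP13 (0.869), XTH30 (0.633), PMA4 (0.625), monodehydroascorbate reductase (0.865), HST (0.776), the trans-cinnamate 4-monooxygenase (0.776), TIP1-3 (0.699), the beta-amyrin synthase DN21489_c2_g1 (0.759), the primer-list GSTU17 (0.761) and ANP2 (0.758), and for the sum of genes with a vertebrate best hit (0.962). In STP13 it held 210.9 TPM. Replicate 1 of DW1 was the highest drought library for histone H2B (0.788), histone H3.2 (0.749), GH3.6 (0.691), RFS1 (0.656), XTH9 (0.785), SPEECHLESS (0.804), KAN4 (0.735), FIT (0.841) and CRF4 (0.660), genes that fell by the test, and for LAR (0.979), which did not pass. In FIT it held 23.9 TPM. Among watered libraries, replicate 1 of CG1 was the highest for ATHB-7 (0.655) and the same beta-amyrin synthase (0.707) and the lowest for the ACC oxidase (0.635), and replicate 3 of CW1 was the lowest for GRF12 (0.679). The MYB39 gene that fell, DN16545_c0_g1, was listed above 0 only in replicate 2 of DG1 among the drought libraries (1.0).

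The xyloglucan endotransglucosylase DN13462_c0_g3 differed between the cultivars by the interaction term, at -2.94 on the log2 scale for G1 minus W1.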

How the results depend on the processing

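The 2428 shared genes became 2423 with RLE factors, 2456 with DESeq2, 2406 with no filter, 2428 with other species dropped before the fit, 2437 with 4 group means, 2432 with limma-trend and 3167 with overlap judged on CPM, which kept 2114 (87.1%) of them. They became 1554 when a SwissProt hit was required (627 rising) and 680 with a 4-fold minimum (290 rising, 390 falling). Genes past the test alone became 1921 rising with a required hit, and 742 rising and 879 falling with the minimum. Leaving out single libraries gave 2398 to 4051 shared genes, 1177 to 1475 rising and 1216 to 2576 falling, the highest of each without replicate 1 of DW1, and 2681 to 3655 rising and 2989 to 4485 falling past the test. The interaction count of 4 was 371 with DESeq2, 0 with the replicate block, and 0 to 308 without single libraries. With the replicate number as a block 2420 genes were shared. Correlations of same-numbered libraries ran from -0.18 to 0.27 over 18 pairs, 3 of them over 0.1, so the numbers were taken not to pair them, and 0 of 211 named shared genes lost their call under it. Of these 211, 191 kept their test call in each refit and each omission of a single library, and 20 lost it in at least 1. Required hits, the minimum and CPM overlap were recomputed for counts only. LAR (DN21013_c0_g4), which did not pass, turned from 0.0012 to -0.10 with DESeq2, -0.067 with no filter, -0.0056 with other species dropped first, -0.13 with 4 group means, -1.04 with the replicate block and -0.80 with limma-trend, and ran from -2.34 (without replicate 1 of DW1, adjusted p = 0.0368 by edgeR) to 0.63 without single libraries. Of 2058 list counts recomputed, 312 moved by more than 1.5 times, and the minimum lowers such counts by its construction. The causes were not tested. With 3 libraries per group and the totals given, small changes of rare transcripts were not detectable. Days without water and plant age cannot be told apart, and assembled genes can be fragments or merged copies.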

Other observations

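The gene groups in this section were chosen after the values of the shared genes were seen, by words in the SwissProt description, so their counts are descriptions and carry no test of the group. The background for each of them is the 12820 kept genes with a SwissProt hit, of which 1921 rose and 2649 fell. Of 50 plastid ribosomal protein genes 34 fell (26 to 34 without single libraries), at a median log2 change of -0.94. RPL17 (DN17157_c0_g1) of the large subunit fell from 691 TPM (545 to 853) to 329 TPM (159 to 419), and RPS13 (DN19956_c0_g3) of the small subunit from 497 TPM (381 to 619) to 243 TPM (108 to 336). Of 35 genes of plastid protein import and chaperonins 15 fell and 3 rose. TOC75-3 (DN13931_c0_g4), the import pore of the outer envelope, fell from 73.2 TPM (48.6 to 90.7) to 27.1 TPM (21 to 29), and the alpha subunit of the chaperonin that folds RuBisCO (DN19395_c0_g5) from 415 TPM (285 to 430.5) to 161 TPM (147 to 187). Of 15 arabinogalactan and fasciclin-like proteins, which sit at the cell surface, 11 fell and 1 rose (0 rising without replicate 1 of CG1 or CW1 or replicate 3 of DW1). FLA8 (DN19453_c0_g9) fell from 104 TPM (67 to 172) to 24 TPM (5.67 to 50.1).

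Of 78 genes with a peroxisomal description 26 rose and 2 fell. ACX4 (DN13780_c0_g2), an oxidase that starts fatty acid breakdown, rose from 81.3 TPM (66.9 to 101) to 132 TPM (113 to 213), and AIM1 (DN19551_c0_g1), which carries out its middle steps, from 17.7 TPM (13.1 to 25) to 33 TPM (30.5 to 67.3). Of 51 cysteine and aspartic protease genes 18 rose and 5 fell (3 falling without replicate 1 of CG1 or replicate 3 of DG1, 8 without replicate 1 of DW1), and a protease inhibitor, CYS6 (DN13886_c0_g3), is among the shared ones at a log2 change of 0.91. The vacuolar-processing enzyme gamma (DN20490_c0_g1), which activates other vacuolar proteases, rose from 45.3 TPM (22.7 to 62) to 169.5 TPM (75.4 to 350.0). Of 46 genes for iron, copper and zinc 16 rose and 7 fell. YSL3 (DN18644_c0_g1), which carries metals bound to nicotianamine out of old leaves in Arabidopsis, rose from 92.6 TPM (70.3 to 105) to 204 TPM (149.7 to 275), and a ferritin (DN16203_c0_g1), the iron store of plastids, from 66.5 TPM (47.3 to 97) to 152 TPM (134 to 262). A subunit of respiratory complex I, FRO1 (DN17971_c0_g2), which is in the group only by its iron-sulfur name, fell by 0.45. Of 113 cytochrome P450 genes 45 rose and 3 fell (8 falling without replicate 1 of DW1), and the reductase that feeds them electrons, CPR (DN20189_c0_g1), rose from 51.4 TPM (48.5 to 65) to 109.8 TPM (93.3 to 189). Of 66 UDP-glycosyltransferases 22 rose and 4 fell (2 falling without replicate 2 of CG1 or CW1 or replicate 1 or 3 of DG1). UGT86A1 (DN18525_c0_g5) rose from 16.6 TPM (7.74 to 25.4) to 39.2 TPM (27.6 to 101). Parts of these groups overlap with lists described before.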
